A study of Rattus norvegicus with 6 samples.

Results

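Cathepsins are proteases of the lysosome, and cystatin C is a secreted inhibitor of many of them. The genes compared here were 8 cathepsin genes, Ctsa, Ctsb, Ctsc, Ctsd, Ctsk, Ctsl, Ctss and Ctsz, together with Cst3, which encodes cystatin C. They were chosen by symbol, and each of the 9 was found among the 18420 genes of the deposited table. The RNA-seq libraries came from primary chondrocytes of wild-type male Sprague-Dawley rats, taken from knee and hip cartilage, used at the third passage and all exposed to TNF-α as a cellular model of osteoarthritis. In the TNF-α group (n = 3) the cells were exposed for 6 h to TNF-α at 10 ng/mL. In the TNF-α+NFL group (n = 3) the same exposure was followed by another 24 h with NFL, the cleared freeze-thaw lysate of Nanofat cells from rat abdominal fat. The labels give 6 h for the first group and 30 h for the second, so that NFL and the time of harvest cannot be told apart. The comparison asks which of these genes differed between TNF-α alone and TNF-α followed by NFL, and every direction below follows the deposited group labels. Other material of the study has the difference between these groups in the opposite direction, which the deposited files do not settle, and with the labels exchanged every sign below would turn.

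Most cathepsins are made as inactive precursors, sorted to the lysosome and activated at acid pH, where they degrade proteins taken up or recycled by the cell. Cathepsins B, C, K, L, S and Z are cysteine proteases, cathepsin D is an aspartic protease and cathepsin A is a serine carboxypeptidase. Cystatin C binds the active site of cysteine cathepsins and does not inhibit cathepsin D. In cartilage, cathepsin K is known for cutting the collagen triple helix, while cathepsins B, L and D can degrade aggrecan and other matrix proteins. RNA-seq measures their RNA and neither the activity of the enzymes nor the balance of protease and inhibitor protein.

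Each library held between 19344893 and 19725135 estimated counts. On the first principal component of the log2 normalized counts, which held 27.97% of the variance, TNF-α replicate 3 was at 19.8 and TNF-α replicate 1 at -13.3, with the other libraries between them, and on the second TNF-α replicate 1 was the lowest at -16.7. Between pairs of libraries, the variance of the counts was 5.01 to 13.98 times that of counting noise in the TNF-α group. It was 2.71 to 3.05 times in the TNF-α+NFL group, and the edgeR fit shares the dispersion of a gene between both groups. Results that rest on 1 library are also given without it. The cells were checked against the markers of their label. Prg4 and Col11a1 were high, with a mean of 1100.2 and 460.0 TPM over the 6 libraries, whereas the defining cartilage genes Col2a1, Acan and Sox9 were at 8.47, 5.33 and 4.54 TPM and Matn1 and Cnmd were below the filter on low counts. The 8 genes of the fibroblast list summed to between 4481 and 5057 TPM, with Thy1 the highest at a mean of 2565 TPM. By the quasi-likelihood test of edgeR, 0 genes of either list differed between the groups with an adjusted p below 0.05, where 0.611% of all tested genes did. Col11a1 was nearest to it, with an adjusted p of 0.052 and a log2 fold change of 0.22.

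At the level of RNA, Ctsb was the most abundant of the 9 genes and Cst3 came next. TPM is scaled to transcript length and to 1 sum per library, so it allows levels of different genes to be compared. Ctsb was at a mean of 2799.6 TPM over the 6 libraries, which ranked 30 among the 18420 genes, and Cst3 was at 2251 TPM, which ranked 44. Ctsl, Ctsd and Ctsa followed with 1053, 1044 and 758 TPM. Ctsk, the collagen-degrading cathepsin, was lower at 73.9 TPM. Ctsz, a carboxypeptidase also called cathepsin X, was at 9.85 TPM, Ctsc, which activates the serine proteases of immune cell granules, at 2.46 TPM and Ctss, a cathepsin of antigen-presenting cells, at 1.45 TPM. The order was the same in all 6 libraries for 6 of the 8 neighbouring pairs. The exceptions were Ctsl with Ctsd and Ctsc with Ctss, whose ranges over the libraries overlapped and which kept this order in 5 of the 6 libraries. The 8 cathepsins together made up between 0.558% and 0.591% of all TPM in a library.

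**Figure D1:**
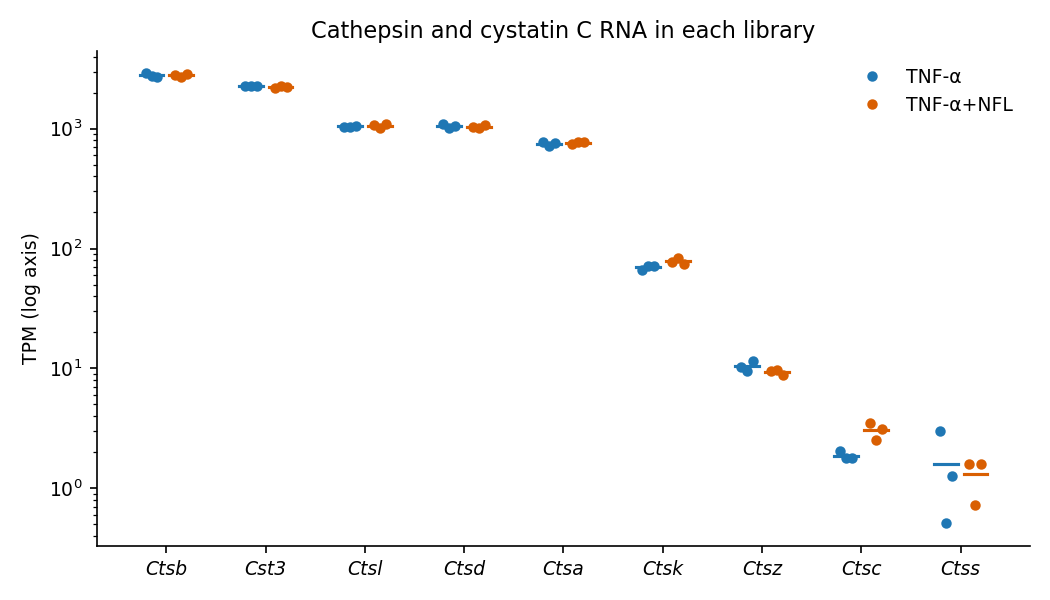
TPM of the 8 cathepsin genes and Cst3 in each library (points, log axis), with the group means as horizontal lines, for 3 TNF-α and 3 TNF-α+NFL libraries. Levels run from 1.45 TPM for Ctss to 2799.6 TPM for Ctsb as means over the 6 libraries, and most genes show little distance between the groups compared with the distance between genes.

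Of the 9 genes, 0 passed an adjusted p of 0.05 in the quasi-likelihood test of edgeR, where 0.611% of all 13250 tested genes did (0.408% higher and 0.204% lower with NFL). With 1 library left out, the count was 1 without TNF-α replicate 1, where 6.94% of all tested genes passed, and 0 in the other 5 fits, with 0.0373% of all tested genes past the threshold without TNF-α+NFL replicate 1. The count was also 0 with the DESeq2 Wald test, which gave no adjusted p for Ctsc, Ctss and Ctsz, and 0 with limma-voom. At an unadjusted p under 0.05 from edgeR there were 2, Ctsc and Ctsk, both higher in the TNF-α+NFL group, against a background of 11.1% of all tested genes (5.66% higher and 5.45% lower). In 4 of the 9 genes the normalized counts (CPM, counts scaled to library size after TMM normalization) of the groups did not overlap, 2 of them higher and 2 lower, whereas 16.8% of all tested genes had no overlap (8.66% higher and 8.17% lower). All 9 genes passed the filter on low counts. Their median log2 fold change was -0.046 and that of all tested genes was -0.0035, with 2 of the 9 genes higher and 7 lower in TNF-α+NFL. With the trend of each library over transcript length removed, 5 were higher and 4 lower and the median was 0.012. Without TNF-α+NFL replicate 2 the median was -0.0095, with 3 higher and 6 lower.

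**Figure D2:**
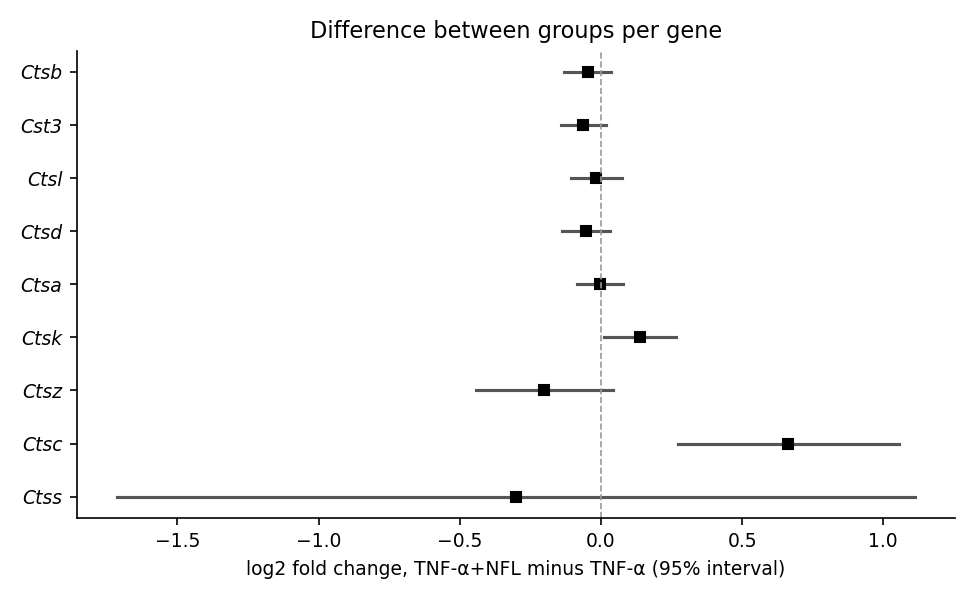
Log2 fold change of each gene in TNF-α+NFL against TNF-α (squares) with its 95% interval from the edgeR fit (lines), ordered by mean TPM. The intervals of Ctsc and Ctsk lie above 0 before adjustment over all genes, those of the 5 most abundant genes are narrow and include 0, and that of Ctss is the widest.

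Ctsc encodes cathepsin C, also known as dipeptidyl peptidase 1. Its CPM was 2.25, 1.97 and 2.02 in TNF-α replicates 1, 2 and 3, and 3.47, 2.66 and 3.77 in TNF-α+NFL replicates 1, 2 and 3. Every TNF-α+NFL library was thus above every TNF-α library. On the log2 scale Ctsc was higher by 0.66 (standard error, SE, 0.18, 95% interval 0.27 to 1.05), with an unadjusted p of 0.0028 and an edgeR adjusted p of 0.15, so the difference was not past the threshold over all genes. The exact permutation test (two-sided) gave p = 0.10, the smallest value that 3 samples against 3 allow. Of the fits that left out 1 library, only that without TNF-α replicate 1 brought Ctsc past the threshold (log2 fold change 0.72, adjusted p = 0.048), and in that fit 6.94% of all tested genes were called. With the length trend removed, the log2 fold change of Ctsc was 0.67 (edgeR adjusted p = 0.084). These values rest on between 39.39 and 73.91 estimated counts per library, and the count was fractional in 6 of the 6 libraries, so that some of its reads were shared with other transcripts and the level is uncertain.

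Ctsk encodes cathepsin K, the main collagenase of osteoclasts. Its CPM was 46.4, 51.8 and 52.1 in TNF-α replicates 1, 2 and 3, and 54.3, 58.7 and 52.5 in TNF-α+NFL replicates 1, 2 and 3. The groups did not overlap, though TNF-α+NFL replicate 3 lay close to TNF-α replicates 2 and 3. Ctsk had a log2 fold change of 0.14 (SE 0.059, 95% interval 0.012 to 0.27), with an unadjusted p of 0.034 and an edgeR adjusted p of 0.40 (exact permutation p = 0.10). Without TNF-α replicate 1, the lowest of the libraries, the value was 0.088 (unadjusted p = 0.092 from edgeR), and without TNF-α+NFL replicate 2, the highest, it was 0.092 (unadjusted p = 0.17). The unadjusted p of Ctsk was also above 0.05 without TNF-α+NFL replicate 1 (0.055), with the DESeq2 Wald test (0.070) and with limma on log2(FPKM + 1) (0.053) and log2(FPKM + 0.1) (0.051). It stayed below 0.05 in edgeR without TNF-α replicate 2 (0.034), TNF-α replicate 3 (0.022) or TNF-α+NFL replicate 3 (0.025), with a log2 fold change of 0.17 in each. With the length trend removed, the log2 fold change was also 0.17 (unadjusted p = 0.0031 and adjusted p = 0.11 from edgeR). Of the osteoclast markers, Mmp9 was at a mean of 96.2 TPM and Itgb3 at 10.8 TPM, while Oscar, Atp6v0d2 and Tnfrsf11a were below the filter on low counts with at most 9.93 estimated counts in a library. The summed list lay between 99.8 and 117 TPM in the TNF-α group and between 104 and 111 TPM in the TNF-α+NFL group, and its part in the Ctsk values was not tested. In bulk RNA, fewer cells of a type and less RNA per cell cannot be told apart.

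As a share of Ctsl, the more abundant cysteine cathepsin, Ctsk TPM was 6.35%, 6.86% and 6.70% in TNF-α replicates 1, 2 and 3. It was 7.11%, 8.30% and 6.83% in TNF-α+NFL replicates 1, 2 and 3. The share in TNF-α+NFL replicate 3 fell within the range of the TNF-α libraries, so on this scale the groups overlapped.

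**Figure D3:**
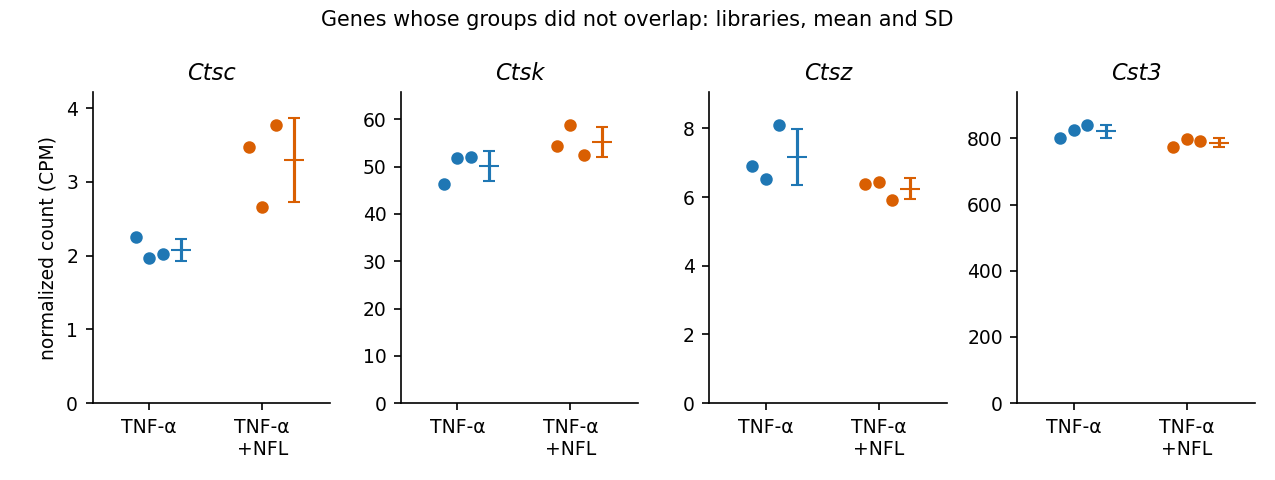
Normalized counts (CPM, axes from 0) of Ctsc, Ctsk, Ctsz and Cst3 in the 3 TNF-α and 3 TNF-α+NFL libraries (points), with the mean and SD beside them. The groups do not overlap in these 4 genes, with Ctsc and Ctsk higher and Ctsz and Cst3 lower in TNF-α+NFL, and none of the 4 is past an adjusted p of 0.05.

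Cst3, the inhibitor, and Ctsz were the genes whose groups were separated in the other direction. Cst3 was at a CPM of 801, 826 and 839 in TNF-α replicates 1, 2 and 3, and at 773, 798 and 791 in TNF-α+NFL replicates 1, 2 and 3. All TNF-α+NFL libraries were lower, by a margin that was small next to the level: the highest of them was 798 and the lowest TNF-α library 801. This gave a log2 fold change of -0.062 (SE 0.036, 95% interval -0.14 to 0.016, edgeR adjusted p = 0.58, exact permutation p = 0.10), and on the linear scale the interval ran from -9.30% to 1.15%. After the dependence on transcript length had been taken out of every library, the log2 fold change was 0.012, in the opposite direction. With 1 library left out, the log2 fold change of Cst3 stayed negative. It ran from -0.080 without TNF-α replicate 1 (edgeR adjusted p = 0.099) to -0.045 without TNF-α replicate 3 (edgeR adjusted p = 0.82). The TPM values of Cst3 overlapped between the groups, at 2269, 2268 and 2283 TPM in TNF-α and at 2182, 2274 and 2230.1 TPM in TNF-α+NFL.

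Ctsz was at a CPM of 6.91, 6.53 and 8.09 in TNF-α replicates 1, 2 and 3, and at 6.38, 6.45 and 5.91 in TNF-α+NFL replicates 1, 2 and 3. The highest value, that of TNF-α replicate 3, stood apart from the other five, which lay close together. Its log2 fold change was -0.20 (SE 0.11, 95% interval -0.44 to 0.043, edgeR adjusted p = 0.56, exact permutation p = 0.10) and it was -0.10 without TNF-α replicate 3. In TPM the groups overlapped, since TNF-α replicate 2 (9.41 TPM) was below TNF-α+NFL replicates 1 and 2 (9.47 and 9.65 TPM).

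In the abundant cathepsin genes Ctsb, Ctsl, Ctsd and Ctsa the groups overlapped. Ctsb, a cysteine protease that cuts within proteins and also removes dipeptides from their C-terminal end, was at a CPM of 2627, 2568 and 2554 in TNF-α replicates 1, 2 and 3 and at 2513, 2399 and 2593 in TNF-α+NFL replicates 1, 2 and 3. TNF-α+NFL replicate 2 was the lowest library and replicate 3 lay within the TNF-α range. Ctsb thus differed by -0.046 on the log2 scale (SE 0.039, edgeR adjusted p = 0.73), and the 95% interval of the difference ran from -8.60% to 2.61%. With 1 library left out the value lay between -0.072 and -0.016, the latter without TNF-α+NFL replicate 2.

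Ctsl, which encodes a cysteine endopeptidase, was at a CPM of 708, 731 and 754 in TNF-α replicates 1, 2 and 3 and at 739, 685 and 744 in TNF-α+NFL replicates 1, 2 and 3. TNF-α+NFL replicate 2 was again the lowest. Ctsl differed by -0.016 on the log2 scale (SE 0.042, edgeR adjusted p = 0.94), with an interval from -7.20% to 5.35%, and the sign turned with the length trend removed (0.017) and when either TNF-α replicate 3 (0.0083) or TNF-α+NFL replicate 2 (0.021) was left out.

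Ctsd encodes the aspartic protease and was at a CPM of 1085, 1045 and 1085 in TNF-α replicates 1, 2 and 3 and at 1034, 994 and 1073 in TNF-α+NFL replicates 1, 2 and 3. The interval of its difference ran from -9.06% to 2.28% (log2 fold change -0.052, SE 0.039, edgeR adjusted p = 0.69), and with 1 library left out the log2 fold change lay between -0.079 and -0.025. Ctsa encodes cathepsin A, which protects lysosomal β-galactosidase and neuraminidase from degradation. Its CPM was 772, 739 and 782 in TNF-α replicates 1, 2 and 3 and 747, 765 and 777 in TNF-α+NFL replicates 1, 2 and 3, and each TNF-α+NFL library lay within the TNF-α range. For Ctsa the log2 fold change was -0.0022 (SE 0.038, edgeR adjusted p = 0.99, interval -5.61% to 5.62%), a value so near 0 that its sign changed between settings. The estimated count of Ctsa was fractional in 6 of the 6 libraries. For Ctsa, Ctsb, Ctsd, Ctsl and Cst3, the interval of the difference lay within 20% of the TNF-α level in both directions, and changes smaller than these intervals were not detectable with 3 libraries in each group.

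Ctss, the least abundant of the genes, varied most between replicates. Its estimated count was 33, 6 and 15 in TNF-α replicates 1, 2 and 3, and 18, 8 and 18 in TNF-α+NFL replicates 1, 2 and 3. The highest and the lowest library both belonged to the TNF-α group, and its coefficient of variation was 78.2% there, against 7.10% for Ctsc. For Ctss the log2 fold change was -0.30 (SE 0.60, 95% interval -1.71 to 1.11, edgeR adjusted p = 0.92), and it was 0.49 without TNF-α replicate 1, in the opposite direction.

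Some markers of macrophages, which express Ctss, were also highest in TNF-α replicate 1, and others were not. Of the 12 macrophage markers listed, 9 were in the table and 3 (Cd68, Cd14 and Cd74) passed the filter on low counts. The estimated counts of these 3, not scaled to library size, were not highest in TNF-α replicate 1. Cd74 had 20 there and 31 in TNF-α replicate 3, Cd14 had 1022 and 1089 in the same libraries, and Cd68 had 491 there and 502 in TNF-α+NFL replicate 3. In TPM, Cd68 and Cd14 were highest in TNF-α replicate 1 by a small margin. Cd68 was at 43.35 there and 42.86 in TNF-α+NFL replicate 3, and Cd14 was at 68.63 there and 68.2 in TNF-α replicate 3. Cd74 was at 1.76 TPM there and 2.46 in TNF-α replicate 3. The remaining 6, Ptprc, Csf1r, Aif1, Tyrobp, Fcer1g and Lyz2, were singled out after their values had been seen. They summed to 87.95 estimated counts in TNF-α replicate 1, to 10 and 12 in replicates 2 and 3, and to 10.57, 9.57 and 10 in the TNF-α+NFL replicates. In TNF-α replicate 1 Csf1r, the receptor of macrophage colony-stimulating factor, had 40 counts and Tyrobp and Lyz2 had 11 and 14.95, whereas Tyrobp and Lyz2 had 0 in each of the other 5 libraries. The whole macrophage list, most of it Cd14 and Cd68, summed to between 108 and 121 TPM in the TNF-α group and to between 101 and 103 TPM in the TNF-α+NFL group. Their part in the Ctss values was not tested. Ctsc did not share this pattern, since TNF-α replicate 1 had 43.34 of its counts, against 39.39 and 40.38 in replicates 2 and 3.

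**Figure D4:**
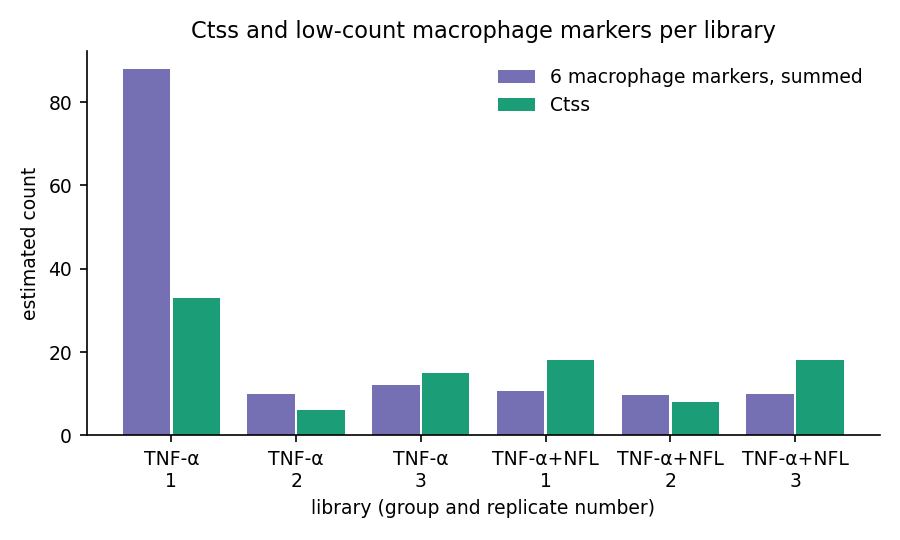
Estimated counts of Ctss and of 6 low-count macrophage markers summed (Ptprc, Csf1r, Aif1, Tyrobp, Fcer1g and Lyz2) in each of the 6 libraries (bars from 0). TNF-α replicate 1 has the highest value of both, 33 and 87.95, and the marker sums of the other 5 libraries lie between 9.57 and 12.

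To set the protease genes beside their inhibitor, the TPM of the 6 cysteine cathepsins (Ctsb, Ctsc, Ctsk, Ctsl, Ctss and Ctsz) was summed and divided by that of Cst3. The ratio was 1.77, 1.72 and 1.69 in TNF-α replicates 1, 2 and 3 and 1.83, 1.67 and 1.82 in TNF-α+NFL replicates 1, 2 and 3. The means were 1.73 ± 0.041 (SD, n = 3) and 1.77 ± 0.090 (SD, n = 3), and TNF-α+NFL replicate 2 was below all TNF-α libraries. Ctsb alone supplied between 70.3% and 72.2% of the cysteine cathepsin TPM. The ratio therefore follows mostly Ctsb and Ctsl, and Ctsc and Ctsk hardly enter it.

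The other genes of the lysosome were described by 4 lists, with 83 tested genes in all, of which edgeR called 1 higher and 0 lower with NFL, with adjusted p below 0.05, against 0.611% of all tested genes. At an unadjusted p under 0.05 there were 3 higher and 4 lower genes, against 11.1% of all tested genes, and the median log2 fold change over the 83 genes was -0.020, against -0.0035 for all tested genes. Of the other cathepsins 3 were tested and 0 called. The highest of them were Ctsh, an aminopeptidase at a mean of 319 TPM with a log2 fold change of 0.074 (adjusted p = 0.55), and Ctsf at 96.7 TPM with 0.030 (adjusted p = 0.88). The CPM of Ctsh did not overlap between the groups and was higher in TNF-α+NFL, where 16.8% of all tested genes had no overlap. That of Ctsf overlapped. With 1 library left out, Ctsh lay between 0.047 and 0.094 and Ctsf between 0.0060 and 0.061, both lowest without TNF-α replicate 2. Of the other inhibitors 3 were tested and 0 called. Cstb, which encodes the intracellular inhibitor cystatin B, was at a mean of 861 TPM with a log2 fold change of -0.091 (adjusted p = 0.55). Without TNF-α replicate 1 this was -0.15, with an edgeR adjusted p of 0.014. It was outside the threshold in the other 5 fits that left out 1 library, at -0.059 without TNF-α replicate 2, and with the length trend removed it was 0.00024, with the sign turned. Cst6, which encodes the secreted cystatin M, was at 17.2 TPM with a log2 fold change of -0.21 (adjusted p = 0.54), and between -0.28 and -0.14 with 1 library left out, the latter without TNF-α+NFL replicate 2.

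The list of other lysosomal hydrolases and their activators held 42 tested genes, 13 higher and 29 lower, with a median log2 fold change of -0.021 and 0 called. The median of all tested genes was -0.0035. For this list and the next, the counts of higher and lower genes are from the edgeR fit of all 6 libraries alone. Its most abundant members, Psap and Npc2, which encode the precursor of the saposins and a cholesterol transfer protein, had log2 fold changes of -0.013 and -0.0084. With the length trend removed these were -0.014 and 0.030. The smallest p was that of Arsb, which encodes the sulfatase of dermatan and chondroitin sulfate. Its CPM was 71.2, 67.2 and 67.3 in TNF-α replicates 1, 2 and 3 and 59.2, 59.8 and 60.7 in TNF-α+NFL replicates 1, 2 and 3. The groups did not overlap, and Arsb differed by -0.19 on the log2 scale (SE 0.044, edgeR adjusted p = 0.075). With the length trend removed the edgeR adjusted p of Arsb was 0.039, and without TNF-α replicate 1 it was 0.021. It was outside the threshold in the other settings, from 0.12 to 0.38 in the other 5 fits that left out 1 library. Asah1, which encodes acid ceramidase, came next with 0.12 (adjusted p = 0.36).

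The list of lysosomal membrane, acidification and delivery held 35 tested genes, 16 higher and 19 lower, with a median log2 fold change of -0.0021. Its most abundant members were the membrane proteins Cd63 and Lamp1, with log2 fold changes of -0.018 and -0.015. Sort1 was the called gene. It encodes sortilin, a receptor that carries proteins from the Golgi apparatus to the lysosome. Its CPM was 50.6, 48.3 and 46.5 in TNF-α replicates 1, 2 and 3 and 58.0, 57.1 and 57.7 in TNF-α+NFL replicates 1, 2 and 3. Sort1 was higher by 0.25 on the log2 scale (SE 0.047, 95% interval 0.15 to 0.35, edgeR adjusted p = 0.036), and of the 6 fits that left out 1 library it was past 0.05 only in that without TNF-α replicate 1, at an adjusted p of 0.00045, while the log2 fold change stayed between 0.22 and 0.28. The adjusted p of Sort1 was 0.078 in edgeR with the replicate number as a block, and 0.20 and 0.19 with limma on log2(FPKM + 1) and log2(FPKM + 0.1). Atp6v1d, which encodes a subunit of the proton pump, had the next smallest p, with a log2 fold change of -0.13 (adjusted p = 0.29) that was -0.18 without TNF-α replicate 1 (adjusted p = 0.0023) and -0.086 without TNF-α replicate 3 (adjusted p = 0.61). In the 5 fits that kept TNF-α replicate 1 and left out another library, the adjusted p was between 0.60 and 0.64.

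**Figure D5:**
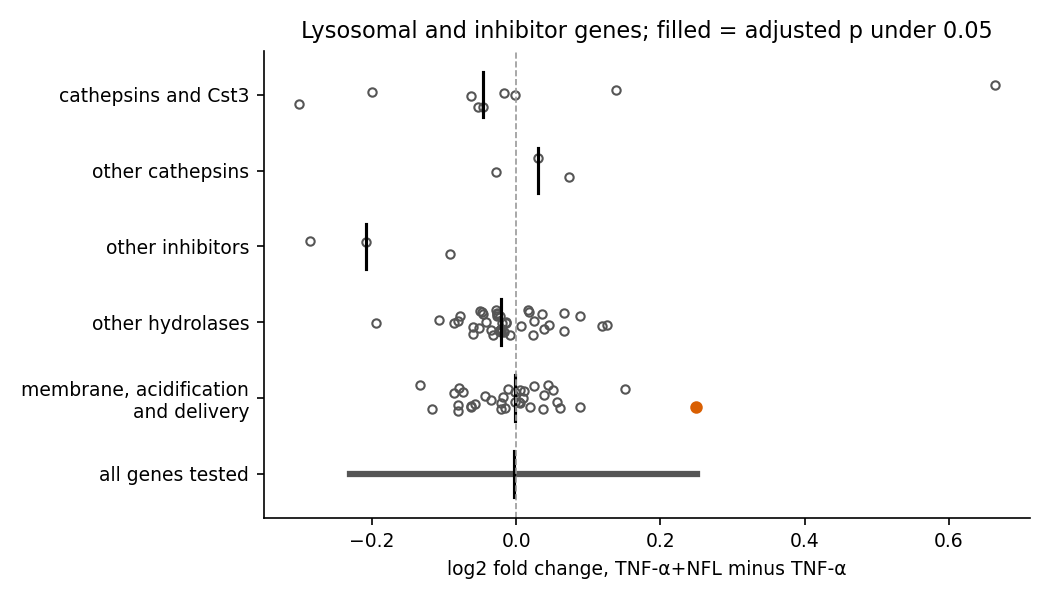
Log2 fold changes (TNF-α+NFL against TNF-α) of the tested genes of each list (circles, filled where the adjusted p is under 0.05), with the list median as a vertical line and, for all 13250 tested genes, the median and the range from the 5th to the 95th percentile as a horizontal line. Sort1 is the filled circle at 0.25, and Ctsc is the open circle farthest to the right, at 0.66.

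The promoters of these genes were read from RefSeq, build GRCr8, which differs from the Rnor_6.0 build of the deposited values, so no coordinates of the reads are implied. Of the 9 genes, 8 matched an entry that spans from 250 bases before the start of transcription into the first transcribed bases. On either strand, the letters CACGTG, the E-box core that the lysosomal regulator TFEB is known to bind, were found in 1 of the 8 entries, against 6.42% of all 33469 entries. The letters TGANTCA, read by AP-1, which TNF-α is known to activate, were found in 0 of the 8 and in 7.33% of all entries. Both motifs are palindromes, so a match stands on both strands. The 250 bases before the start are shown for Ctsd, the gene with CACGTG, where it begins 157 and 10 bases before the start, and for Ctsc and Ctsk, the genes with the smallest p, which hold neither motif. They lie at chr1:206968822-206969071 on the minus strand (Ctsd), chr1:151440799-151441048 on the plus strand (Ctsc) and chr2:185747298-185747547 on the plus strand (Ctsk). Capitals mark CACGTG.
Ctsd: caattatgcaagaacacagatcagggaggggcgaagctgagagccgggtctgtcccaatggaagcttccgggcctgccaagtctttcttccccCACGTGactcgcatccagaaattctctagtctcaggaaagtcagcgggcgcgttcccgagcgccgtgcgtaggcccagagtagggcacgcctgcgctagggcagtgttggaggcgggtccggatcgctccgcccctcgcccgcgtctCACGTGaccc
Ctsc: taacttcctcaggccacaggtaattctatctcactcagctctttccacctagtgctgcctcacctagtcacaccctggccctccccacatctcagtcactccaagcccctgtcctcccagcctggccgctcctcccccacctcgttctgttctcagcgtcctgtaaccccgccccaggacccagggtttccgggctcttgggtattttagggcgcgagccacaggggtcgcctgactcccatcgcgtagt
Ctsk: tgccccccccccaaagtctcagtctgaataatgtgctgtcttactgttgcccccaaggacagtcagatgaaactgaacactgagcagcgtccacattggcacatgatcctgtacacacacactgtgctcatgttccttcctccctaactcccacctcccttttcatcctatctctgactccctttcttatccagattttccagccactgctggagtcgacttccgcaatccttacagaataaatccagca
A match is a description of the sequence, and no binding was measured.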

How the data were processed

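RNA-seq was performed on 3 TNF-α and 3 TNF-α+NFL samples of rat chondrocytes, from poly(A) RNA with single-end reads. The authors deposited estimated counts per gene, not normalized, FPKM values (per transcript length and mapped reads) and TPM values (per length, with an equal sum in every library). The submitters' processing notes name HISAT2 2.0.4, Bowtie2 2.2.5, RSEM 1.2.12 and the build Rnor_6.0. Counts were rounded and fitted on the whole table using R 4.3.3 and edgeR 4.0.16 (TMM, filterByExpr, robust quasi-likelihood, two-sided, Benjamini-Hochberg over 13250 genes), with standard errors derived from the F statistic and 95% intervals from the t distribution with the fit's degrees of freedom, not adjusted over genes. The exact permutation tests used log2(CPM + 0.5). TPM gave levels between genes, and FPKM gave alternative tests with limma 3.58.1 and transcript lengths. DESeq2 1.42.0 was an alternative. Nothing in the labels says that replicates came from separate animals, so p-values measure the spread between these samples. The labels do not say whether samples with the same replicate number were paired, and the edgeR fit took them as unpaired. At this depth Ctss and Ctsc, with at most 33 and 73.91 estimated counts in a library, have wide intervals.

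The genes and lists were chosen with earlier results of these data known. Named are the 9 genes, list members past an adjusted p of 0.05, the 2 with the smallest p and the 2 with the highest TPM in each list, and the 3 genes closest in profile to Cst3 and to the cathepsin with the smallest p. Marker lists for chondrocytes, fibroblasts, macrophages, osteoclasts, endothelium, adipocytes and blood were written from general knowledge.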

Additional observations from a re-analysis of the deposited data

How the results depend on the processing

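All 9 genes kept their direction and stayed outside an adjusted p of 0.05 under no filter on low counts, limma-voom, the size factors of DESeq2 and its Wald test, apart from Ctsc, Ctss and Ctsz, to which the Wald test gave no adjusted p. The size moved for Ctss, from -0.30 to -0.064 with limma-voom and -0.082 with limma on FPKM at either offset, and for Ctsc, from 0.66 to 0.37 with limma on log2(FPKM + 1). A minimum of 10 counts in every sample removed Ctss. The log2 fold change of Ctsa was positive in 5 settings: 6.8e-05 with at least 10 counts in every sample, 0.00076 with library size alone, 0.0015 with limma on log2(FPKM + 1) and on log2(FPKM + 0.1), and 0.013 with the length trend removed. The length trend also turned Ctsl (0.017), Cst3 (0.012), Cstb (0.00024), Npc2 (0.030), Cd63 (0.046) and Lamp1 (9.6e-05). The cause was not tested. With 1 sample left out, Ctsa ran from -0.022 to 0.016, Ctsl from -0.038 to 0.021, Ctss from -0.72 to 0.49, Psap from -0.044 to 0.021, Npc2 from -0.049 to 0.054, Cd63 from -0.060 to 0.012 and Lamp1 from -0.025 to 0.0034. Settings for single genes of the lists were chosen after seeing the data.

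The number of the 9 genes called was 0 and became 2 at an unadjusted p under 0.05, and it ran from 0 to 1 with 1 sample left out, the 1 being Ctsc without TNF-α replicate 1. Of the lists' genes, 1 was called. There were 0 at an adjusted p under 0.01, with limma on log2(FPKM + 1) or log2(FPKM + 0.1) and with the replicate block, 3 with the length trend removed, 7 at an unadjusted p under 0.05, and from 0 to 7 with 1 sample left out, the highest without TNF-α replicate 1. Over all genes, 81 were called, against 23 at an adjusted p under 0.01, 1472 at an unadjusted p under 0.05, 132 with no filter, 148 with the Wald test, 6 and 13 with limma on log2(FPKM + 1) and log2(FPKM + 0.1), 235 with the length trend removed and 34 with the replicate block. With 1 sample left out it ran from 5, without TNF-α+NFL replicate 1, to 930, without TNF-α replicate 1. The cause was not tested. The deviations of same-numbered samples had correlations of -0.011, -0.024 and 0.080, and the labels do not say whether such samples share more than a number. Under the replicate block 0 of the 9 genes were called.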

Other observations

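The genes closest in profile to Cst3 and to Ctsc were sought among the genes with a mean CPM of at least 10, by the root mean square difference of the centred log2 CPM over the 6 libraries. For Cst3 the closest of 9094 genes were Tusc3, Pabpc4 and Sars, with differences of 0.011, 0.013 and 0.013, where the median gene was at 0.075. Their log2 fold changes were -0.051, -0.062 and -0.051, and none was past an adjusted p of 0.05 from edgeR's test. For Ctsc the closest of 9095 genes were Nhsl2, Akap12 and Selenop, with differences of 0.12, 0.13 and 0.14, where the median gene was at 0.32. These had log2 fold changes of 0.41, 0.44 and 0.49 and adjusted p of 0.036, 0.00091 and 0.0073 from edgeR's test. They were picked for their likeness to Ctsc in these 6 libraries, so their direction is no separate evidence.

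Markers of endothelium and blood, and most markers of adipocytes, were low. The 5 endothelial markers in the table summed to between 0.19 and 0.33 TPM in a library, and Kdr had 0 counts in all 6. The 3 blood markers in the table summed to between 0.20 and 0.54 TPM. The 6 adipocyte markers summed to between 32.1 and 32.7 TPM in the TNF-α group and to between 33.1 and 37.7 TPM in the TNF-α+NFL group. Most of this was Fabp4, at a mean of 32.1 TPM and a log2 fold change of 0.12 (adjusted p = 0.70 from edgeR's test), while Adipoq, Plin1, Lep and Cidec had at most 4 estimated counts in any library.

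Among the promoter entries of the lists of lysosomal and inhibitor genes, 17 of 70 held CACGTG, or 24.3%, against 6.42% of all 33469 entries and 1 of the 8 entries of the cathepsins and Cst3. Ctsk and Ctss lie on chromosome 2 of GRCr8 with 2 listed genes between them, and their levels were 73.9 and 1.45 TPM.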
